A study of Homo sapiens with 8 samples.

Results

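A-549 is a human cell line derived from lung adenocarcinoma, and its small RNA-seq libraries were compared with those of ES-2, derived from ovarian cancer, MV-3, derived from melanoma, and Huh-7, derived from hepatocellular carcinoma. The comparison used the 2 libraries of A-549 and the 6 libraries of the other 3 lines, which make up all 8 libraries of the table. All cells were parental and untreated, were seeded for 48 h before RNA extraction, and gave 50 ng of total RNA per library. Each tumor type is represented by 1 line, so the line and the tumor type cannot be told apart, and the study calls the 2 libraries of a line biological replicates. P-values measure the spread between these libraries within a line.

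MicroRNAs (miRNAs) are short RNAs cut from hairpin precursors, which give a 5p and a 3p arm. Loaded into an Argonaute protein, a miRNA pairs with mRNAs mainly through its seed, bases 2 to 8 counted from the 5′ end, and lowers their translation or stability. Many hairpins lie in clusters that are transcribed together, and paralogous clusters on other chromosomes can carry the same seeds, so that a line may fill a seed family from different loci.

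Several groups of sequences carry the differences described here, and each mature sequence is printed as RefSeq gives it on GRCh38, with the seed in capitals. The first group holds miR-21-5p and miR-31-5p, abundant and higher in A-549, with miR-30a-5p, which was abundant in A-549 but not higher than in every other line.
miR-21-5p: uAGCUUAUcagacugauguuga
miR-31-5p: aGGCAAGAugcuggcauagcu
miR-30a-5p: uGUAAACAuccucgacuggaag
The second group comes from the DLK1-DIO3 region of chromosome 14, with 3 leading members and 2 pairs of members that share a seed.
miR-493-5p: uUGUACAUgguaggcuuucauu
miR-127-3p: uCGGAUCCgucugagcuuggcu
miR-381-3p: uAUACAAGggcaagcucucugu
miR-379-3p: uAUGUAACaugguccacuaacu
miR-411-3p: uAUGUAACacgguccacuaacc
miR-154-3p: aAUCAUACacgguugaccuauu
miR-487a-3p: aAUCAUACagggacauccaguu
The third group holds clustered miRNAs higher in A-549, each beside a paralog with the same seed that was not higher than in every other line or was lower.
miR-23b-3p: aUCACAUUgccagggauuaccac
miR-23a-3p: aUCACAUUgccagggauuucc
miR-27b-3p: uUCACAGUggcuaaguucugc
miR-27a-3p: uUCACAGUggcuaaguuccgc
miR-99b-5p: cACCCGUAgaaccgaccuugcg
miR-99a-5p: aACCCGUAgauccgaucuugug
The fourth group shows miRNAs lower in A-549 that share a seed with each other, and for the first pair also with miR-106b-5p, which was not lower.
miR-17-5p: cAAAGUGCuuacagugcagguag
miR-20a-5p: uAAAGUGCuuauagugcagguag
miR-106b-5p: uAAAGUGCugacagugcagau
miR-26a-5p: uUCAAGUAauccaggauaggcu
miR-26b-5p: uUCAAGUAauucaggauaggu

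A-549 libraries were dominated by a single miRNA. miR-21-5p, a miRNA raised in many tumors, took 65.0% and 64.2% of miRNA reads in the A-549 libraries. In the other lines it took 28.2% and 27% in ES-2, 33.2% and 32.1% in MV-3, and 33.3% and 32.9% in Huh-7. Both A-549 libraries lay above all 6 others, and the mean share exceeded the mean of the other lines by 33.5 percentage points (two-sided exact permutation test over libraries, p = 0.0357, the smallest that the 28 choices of 2 libraries allow). As miR-21-5p had been chosen with earlier results of these data known, this p-value is no independent support for its lead. The libraries of a line lay close together, and with whole lines exchanged there are only 4 choices, of which the smallest p is 0.25. Without miR-21-5p, 933585 and 738287 of 2670030 and 2060669 miRNA reads remained in A-549. Depth in the other libraries ranged from 1173902 to 2294994 reads, and without miR-21-5p from 784700 to 1674538. Shares and levels count reads and not molecules, and small RNA ligation favours some sequences, so levels of different miRNAs are set side by side here as reads.

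**Figure D1:**
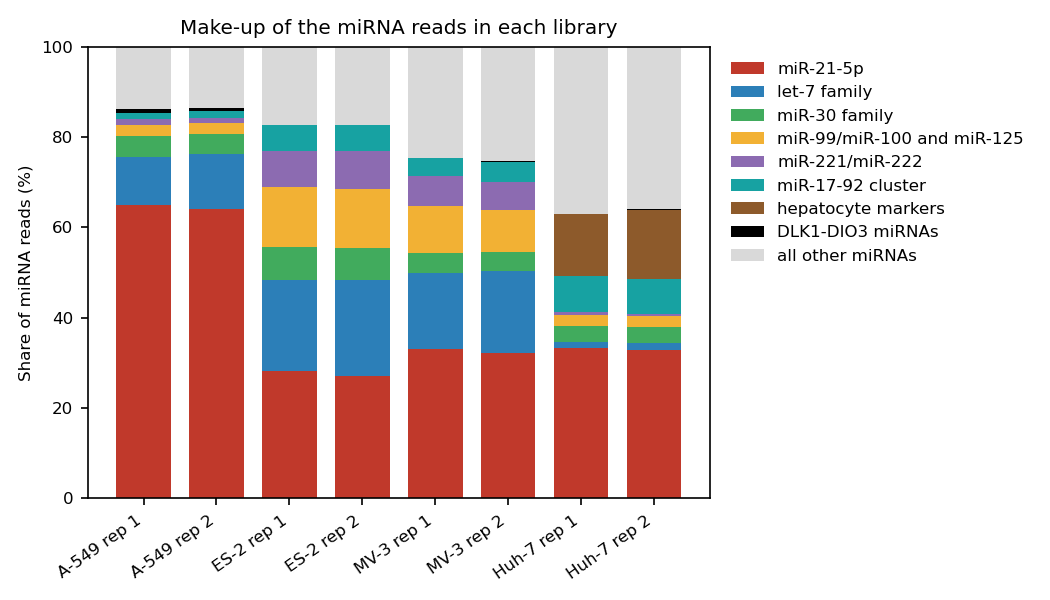
Share of miRNA reads (%) taken in each of the 8 libraries by miR-21-5p, by 7 miRNA lists that do not overlap and by all other miRNAs, as stacked bars. miR-21-5p fills 65.0% and 64.2% of the A-549 bars and at most 33.3% of any other bar, and the DLK1-DIO3 miRNAs form a visible band in A-549 with 0.875% and 0.860% of reads.

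Because such a share presses down every other share of the same library, the lines were compared on 3 scales. The deposited values, called normalised CPM, are CPM, reads scaled to a common library total, divided by trimmed mean of M values (TMM) factors, which were 0.608 and 0.593 in A-549 and averaged 0.857 in ES-2, 1.16 in MV-3 and 1.67 in Huh-7. On this scale A-549 values add up to more than those of a plain CPM, and miR-21-5p alone reaches 1068840 and 1081460. The other scales divide reads by the miRNA total of the library, with or without miR-21-5p in it. The median log2 difference between A-549 and the mean of the other lines, over 528 miRNAs tested, was -0.08 in normalised CPM, -0.98 with miR-21-5p in the total and -0.09 without it. Unless another scale is named, values are normalised CPM and log2 differences are A-549 minus another line on log2(normalised CPM + 1), tested with limma, and a miRNA is called at an adjusted p below 0.01.

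Against the mean of the 3 other lines, each weighted equally, 155 of 528 miRNAs were higher in A-549 (29.4%) and 110 were lower (20.8%). A miRNA was taken as higher or lower than in every other line when it was called in the same direction in each of the 3 pairwise comparisons, which share the A-549 libraries. In normalised CPM, 69 miRNAs were higher than in every other line (13.1%) and 25 were lower (4.73%). With miR-21-5p in the library total the balance turned, with 45 higher (8.52%) and 65 lower (12.3%). Without miR-21-5p in the total, 59 were higher (11.2%) and 13 were lower (2.46%). With a single library left out, the counts in normalised CPM were 44 to 64 higher, with 44 without A-549 replicate 1 and 44 without A-549 replicate 2, and 13 to 19 lower, with 13 to 16 without a library of ES-2, MV-3 or Huh-7. On all 3 scales 44 miRNAs were higher and 13 were lower, and no miRNA called on one scale was called in the opposite direction on another. Of the 69 higher miRNAs, 47 belong to the DLK1-DIO3 region and 22 lie elsewhere.

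**Figure D2:**
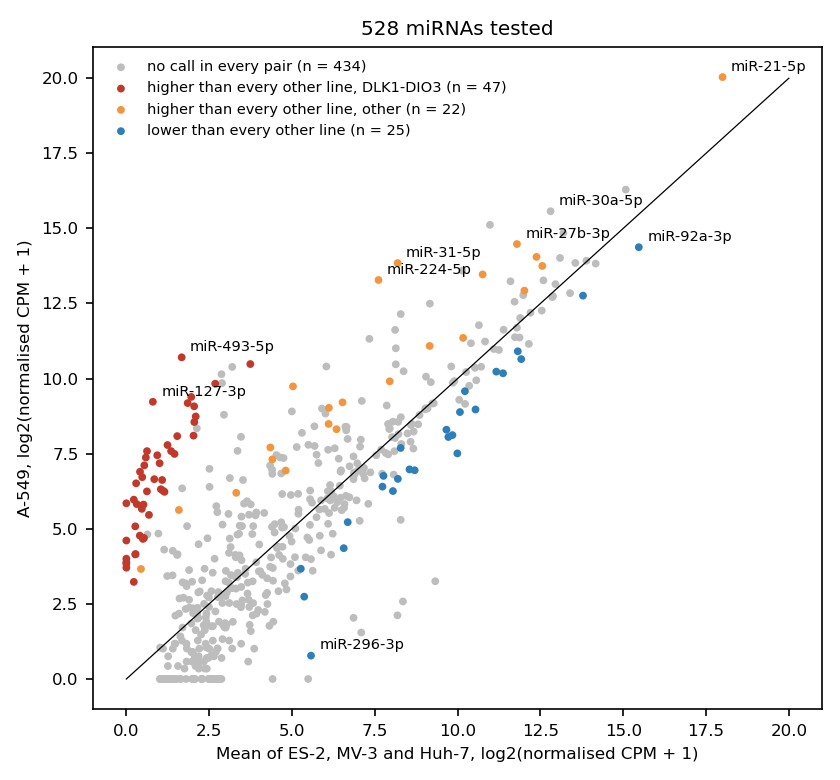
Level of 528 miRNAs in A-549 (y axis) against the mean of ES-2, MV-3 and Huh-7 (x axis), both on log2(normalised CPM + 1), with 1 point per miRNA, the mean of 2 libraries per line and a line of equal level. The 47 DLK1-DIO3 miRNAs called higher (red) sit at the left edge far above the line, the 22 others called higher (orange) lie above the line over a wide range of levels, and the 25 called lower (blue) include miR-296-3p near the bottom.

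Among the 4 miRNAs proposed as marking the line, 3 were higher in A-549 than in every other line on all 3 scales and miR-30a-5p was not. These 4 were chosen with earlier results of these data known, so their calls are not independent evidence for them as markers. miR-21-5p had 1068840 and 1081460 normalised CPM in A-549, 325786 and 318640 in ES-2, 288099 and 272993 in MV-3, and 203763 and 192832 in Huh-7. The A-549 libraries lay apart from all others, with log2 differences of 1.74 to ES-2, 1.94 to MV-3 and 2.44 to Huh-7 (SE 0.06 each; limma adjusted p = 2.1e-06, 1.7e-06 and 2.6e-07). Its hairpin lies at chr17:59841266-59841337 on the plus strand of GRCh38, in an exon of VMP1. The other arm of the hairpin, miR-21-3p, had 2311 and 2045 normalised CPM in A-549 and between 335 and 780 in the other libraries, and it was also higher than in every other line. For miR-31-5p, whose hairpin lies at chr9:21512115-21512185 in an intron of MIR31HG, levels were 15261 and 14187 in A-549, 3175 and 3194 in ES-2, and 4082 and 4707 in MV-3. Huh-7 held 2 and 3 reads of miR-31-5p. The log2 difference of miR-31-5p was 2.21 ± 0.14 to ES-2 and 1.75 ± 0.14 to MV-3 (SE; limma adjusted p = 2.8e-05 and 0.0001).

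miR-493-5p, the most abundant DLK1-DIO3 miRNA of A-549, had 1572 and 1778 normalised CPM there and at most 20.2 in any other library. The values elsewhere were 0 and 8.73 in ES-2, 0 and 1.10 in MV-3, and 1.41 and 20.2 in Huh-7. The second library of each of these lines held more than the first, and the log2 difference of miR-493-5p to the mean of the lines was 9.04 with an SE of 1.11 (limma adjusted p = 0.00052). The difference was 9.13 without A-549 replicate 1 and 8.95 without A-549 replicate 2, and was called in neither. miR-30a-5p had 49594 and 47769 normalised CPM in A-549, 56441 and 55718 in ES-2, 12793 and 12296 in MV-3, and 551 and 494 in Huh-7. ES-2 was therefore first and A-549 second. The log2 difference of miR-30a-5p was -0.20 ± 0.07 to ES-2 (SE; limma adjusted p = 0.038, not called) and 1.96 and 6.54 to MV-3 and Huh-7, both called. Without miR-21-5p in the total, the difference of miR-30a-5p to ES-2 became 0.31 and was called, so the order of A-549 and ES-2 depended on the scale. The next ranks in A-549 belonged to let-7 miRNAs and miR-30a-5p, with let-7a-5p at 73866 and 87030 normalised CPM, let-7i-5p at 33692 and 37527 and let-7f-5p at 26819 and 32521. None of these 4 was higher than in every other line in normalised CPM.

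The DLK1-DIO3 region is an imprinted locus on chromosome 14q32 whose maternally expressed non-coding transcripts carry one of the largest human miRNA clusters. An upstream group of hairpins around miR-493 and miR-127 and a downstream cluster from miR-379 to miR-656 belong to it. The table holds 91 mature names of the region, of which 85 had at least 1 read in any library. With 84 of these placed by RefSeq, they span 197.7 kb from chr14:100869075 to 101066786 on the plus strand, in 47 hairpins. MIR493 and MIR127 lie in introns of MIR493HG, MIR411, MIR323A and MIR494 in introns of MEG8, and MIR889 and MIR656 in introns of MEG9.

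Summed over all 91 names, the region gave 23366 and 17714 reads in A-549. The other lines gave 11 and 188 reads in ES-2, 366 and 465 in MV-3, and 79 and 654 in Huh-7. In normalised CPM the sum was 14435 ± 73.7 in A-549 (SD, n = 2), 52.1 ± 62.9 in ES-2, 263 ± 11.1 in MV-3 and 123 ± 142 in Huh-7. The single libraries held 14383 and 14487 normalised CPM in A-549, 7.64 and 96.5 in ES-2, 271 and 255 in MV-3, and 22.2 and 223 in Huh-7, so a ratio to ES-2 or Huh-7 would depend on the library used. Both A-549 libraries lay far above the others, and reads of 76 and 73 of the names were found in them, against 4 to 50 names in a library of another line. The upstream group summed to 3150 ± 204 normalised CPM in A-549 and the downstream cluster to 11285 ± 131. MV-3 differed between the 2 groups, with 4.06 normalised CPM from the upstream group and 259 from the downstream cluster. Both libraries labelled replicate 2 of ES-2 and Huh-7 held more reads of the region than replicate 1 of the same line. The hepatocyte list, abundant in Huh-7, also had 57 reads in ES-2 replicate 2 and 6 in replicate 1, while MV-3 had 55 and 53. The origin of these reads was not tested. Without both of these second libraries, 41 of the region's miRNAs were called higher in A-549 than in every other line, against 47.

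**Figure D3:**
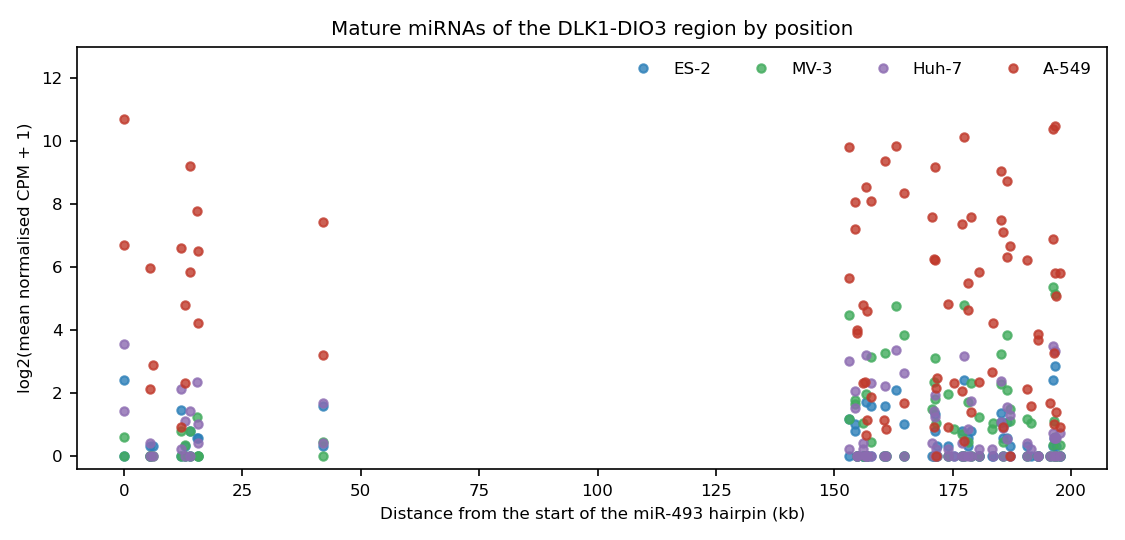
Mean level of 84 mature miRNAs of the DLK1-DIO3 region, log2(mean normalised CPM + 1), in A-549 (red), ES-2, MV-3 and Huh-7 against distance in kb from the start of the miR-493 hairpin. Red points reach above 10 in the upstream group and in the downstream cluster beyond 150 kb, while the other lines stay below 6.

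Most of the region's miRNAs could be called only because A-549 had reads. Of the 85 names with a read, 52 passed the filter on low values, mainly through A-549. Of these, 47 were called higher than in every other line, beside the 13.1% of all miRNAs tested. That 13.1% includes these 47, and outside the region 22 of 476 miRNAs tested were called. As A-549 reads mainly decided which members were tested, the share called is not independent evidence. On the scales with and without miR-21-5p in the total the counts for the region were 38 and 39. edgeR on recovered reads also gave a count of 47, but not the same set. It called 10 of the upstream group and 37 of the downstream cluster, against 12 and 35 by limma. The number was 31 without A-549 replicate 1, 28 without A-549 replicate 2 and 31 without MV-3 replicate 1, and 20 with a pseudocount of 0.1 in place of 1. The 5 that were tested and not called against each line, namely miR-409-3p, miR-487b-3p, miR-543, miR-495-3p and miR-1185-1-3p, were called against ES-2 and Huh-7 and missed the threshold against MV-3. miR-409-3p, for example, had 1250 and 1434 normalised CPM in A-549 and 58.5 and 22.5 in MV-3 (log2 difference 5.16; limma adjusted p = 0.021). The other 33 names did not pass the filter and had at most 22 reads in any library, and 31 of them had their most reads in A-549.

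The leading members of the upstream group are miR-127-3p and miR-493-5p, and miR-370-3p and miR-432-5p follow. miR-127-3p had 574 and 623 normalised CPM in A-549, 0 and 1.54 in ES-2, 1.48 and 0 in MV-3, and 0 and 3.42 in Huh-7. Its smallest log2 difference was 8.16, to Huh-7 (SE 0.87; limma adjusted p = 0.00025). The other arm, miR-127-5p, had 95 and 67 reads in A-549 and 0 reads in all 6 other libraries. Against a floor of 3 reads per library, miR-127-5p was at least 31.3-fold higher than in ES-2, 29.3-fold higher than in MV-3 and 60.6-fold higher than in Huh-7. miR-370-3p had 173 and 174 normalised CPM in A-549 and at most 4.44 elsewhere, and miR-432-5p had 192 and 252 in A-549 and at most 7.17 elsewhere.

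In the downstream cluster, miR-369-3p was the most abundant in A-549, followed by miR-409-3p, miR-487b-3p and miR-543 of the group not called against MV-3, and then by miR-379-5p, miR-494-3p and miR-654-3p. miR-369-3p had 1377 and 1488 normalised CPM in A-549, 5.55 and 7.19 in ES-2, 40.0 and 29.1 in MV-3, and 5.07 and 13.3 in Huh-7. Reads of it were found in every library, as for miR-382-3p and miR-485-3p in the same region, and its log2 difference to MV-3 was 5.35 ± 0.43 (SE; limma adjusted p = 0.0001). miR-379-5p, which opens the cluster, had 880 and 939 normalised CPM in A-549 and at most 28.5 elsewhere. miR-494-3p had 691 and 649 in A-549 and at most 14.1 elsewhere, and miR-654-3p had 649 and 520 against at most 11. miR-381-3p, miR-376c-3p and miR-411-5p, further members among the named miRNAs, reached at most 4.44 normalised CPM in a library of another line. Among the miRNAs called higher than in every other line, reads were absent from all 6 other libraries for 6. These were miR-758-3p, both arms of miR-299, both arms of miR-377 and miR-127-5p. Several members that did not pass the filter, such as miR-433-5p and miR-1197, also had reads only in A-549. The seed-sharing pairs printed above were picked among miRNAs already called higher in A-549, so their common direction follows from that choice. In A-549, miR-379-3p had 43.7 and 56.4 and miR-411-3p had 120 and 173 normalised CPM. There miR-154-3p had 76.9 and 72.8 and miR-487a-3p had 24.6 and 11.5.

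**Figure D4:**
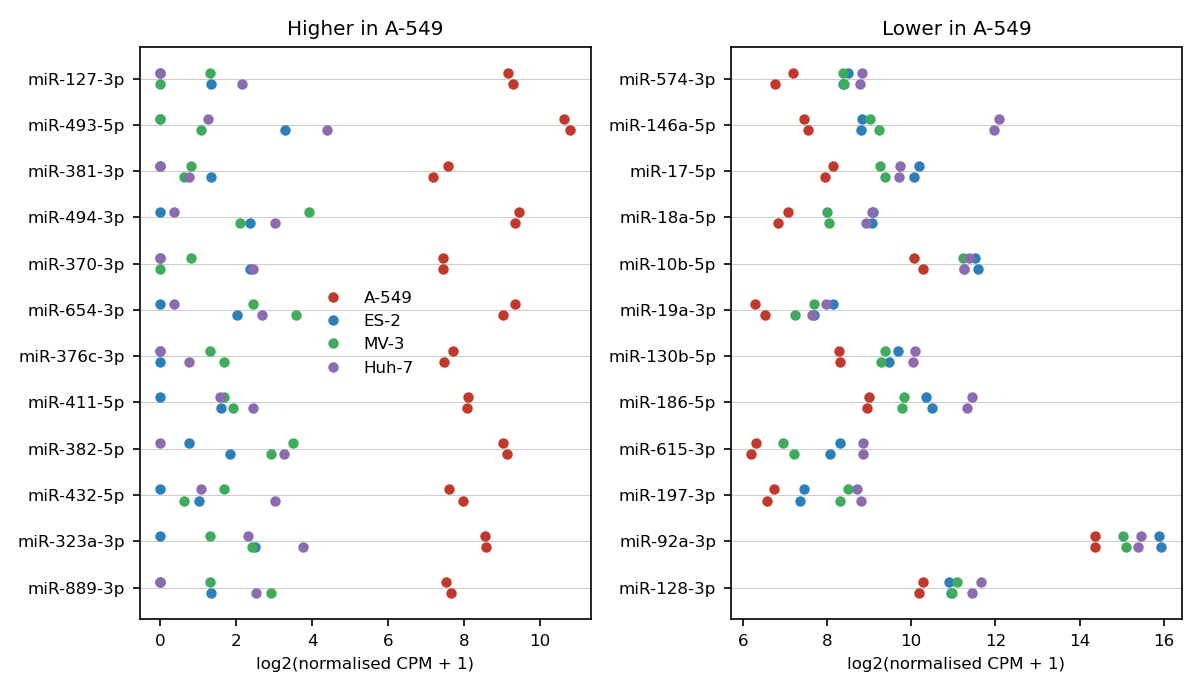
Level in each of the 8 libraries, log2(normalised CPM + 1), of 12 miRNAs called higher (left) and 12 called lower (right) in A-549 than in every other line, with 1 point per library. All 12 on the left belong to the DLK1-DIO3 region, and no A-549 point overlaps another line in either panel.

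Outside chromosome 14, the 22 miRNAs higher in A-549 fell into a few clusters and families. In addition to both miR-21 arms and miR-31-5p, they included 3 of 4 miRNAs tested of the miR-224/miR-452 cluster and 3 of 5 of the miR-23b/miR-27b cluster. Of the miR-193 and miR-365 clusters 3 of 7 were called, all from the miR-193b/miR-365a locus. The miR-181 family gave 3 of 9 and the miR-424/miR-503 cluster 2 of 8, so most of their members were not called. The 3 miRNAs miR-99b-5p, let-7e-5p and miR-125a-5p and the pair miR-132-3p and miR-212-3p complete the 22. Outside the DLK1-DIO3 lists 476 miRNAs were tested, and these groups were chosen with earlier results of these data known. On all 3 scales 7 of the 22 were called, namely both miR-21 arms, miR-31-5p, both miR-224 arms, miR-132-3p and miR-212-3p. The other 15 were not called against every line once miR-21-5p was in the library total.

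miR-224 and miR-452 lie about 1 kb apart on the minus strand of chromosome X, in exons of GABRE, which encodes a GABA-A receptor subunit. miR-224-5p had 9503 and 10431 normalised CPM in A-549, 1169 and 1348 in ES-2, 2.96 and 6.04 in MV-3, and 1163 and 1095 in Huh-7. A-549 lay above all others, with the smallest log2 difference, 2.99 ± 0.26, to ES-2 (SE; limma adjusted p = 0.0001). miR-452-5p had 807 and 905 normalised CPM in A-549, 137 and 155 in ES-2 and 225 and 250 in Huh-7. MV-3 held 0 reads of miR-452-5p in both libraries, so that A-549 was at least 443-fold higher against the floor of 3 reads.

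miR-132-3p and miR-212-3p, cut from neighbouring hairpins at chr17:2049908-2050008 and chr17:2050271-2050380, share the seed AACAGUC and are known to respond to CREB. miR-132-3p had 523 and 518 normalised CPM in A-549, 103 and 122 in ES-2, 128 and 132 in MV-3, and 23.9 and 19.1 in Huh-7. Its log2 differences were 2.20, 1.99 and 4.54 (SE 0.16 each; largest limma adjusted p = 0.0001). miR-212-3p was near the floor, with 18 and 15 reads in A-549, 3 and 2 in ES-2 and 0 in the other 4 libraries.

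The 3 miRNAs miR-99b-5p, let-7e-5p and miR-125a-5p come from 1 cluster on the plus strand of chromosome 19, at 51692612 to 51693339, in introns of SPACA6. All 3 were higher in A-549 than in every other line in normalised CPM. let-7e-5p had 15490 and 18603 normalised CPM in A-549, 5431 and 6339 in ES-2, 9716 and 10153 in MV-3, and 2487 and 2730 in Huh-7. miR-125a-5p had 13931 and 13624 in A-549 and between 4399 and 7803 in the others, with a smallest log2 difference of 0.84 ± 0.05 to MV-3 (SE; limma adjusted p = 2.9e-05). miR-99b-5p had 8153 and 7447 in A-549 and between 2458 and 6163 in the others, and its difference to MV-3 was small, at 0.35 ± 0.07. miR-99a-5p, its paralog on chromosome 21 with the same seed, went the other way. It had 267 and 287 normalised CPM in A-549, 923 and 898 in ES-2, 462 and 384 in MV-3, and 2114 and 1923 in Huh-7, and was lower than in every other line on all 3 scales. miR-125b-2-3p, from the same chromosome 21 locus, was also lower than in every other line, with 27.1 and 13.9 normalised CPM in A-549 and between 60.4 and 168 elsewhere. Unlike miR-99a-5p, it was not called once miR-21-5p was left out of the total. let-7c-5p, the third miRNA of that locus, was not lower than in every other line, with 821 and 1137 in A-549, 1937 and 2048 in ES-2, 876 and 903 in MV-3, and 498 and 489 in Huh-7.

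miR-23b-3p and miR-27b-3p share a transcript in introns of AOPEP on chromosome 9. miR-27b-3p had 23684 and 22001 normalised CPM in A-549, 890 and 993 in ES-2, 6738 and 6683 in MV-3, and 7299 and 6807 in Huh-7. miR-23b-3p followed the same order, with 11563 and 11081 in A-549, 411 and 442 in ES-2, 3491 and 3220 in MV-3, and 3730 and 3485 in Huh-7. Their log2 differences to ES-2 were 4.6 and 4.73, and those to Huh-7 were 1.70 and 1.65 (largest limma adjusted p over all 3 lines = 7.9e-06 for both). miR-23a-3p and miR-27a-3p, which carry the same seeds from chromosome 19, were not higher than in every other line. miR-23a-3p had 16920 and 16202 normalised CPM in A-549 and 27620 and 24810 in MV-3, and miR-27a-3p had 3946 and 3119 in A-549 and 3731 and 4217 in MV-3.

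Of the remaining higher miRNAs, miR-193b-3p had 244 and 178 normalised CPM in A-549 and at most 35.7 elsewhere, and miR-193b-5p and miR-365a-5p from the same locus on chromosome 16 were called with it. miR-450a-5p and miR-542-3p of the miR-424/miR-503 cluster on chromosome X had 374 and 344, and 300.4 and 335, in A-549, against at most 124 and 150 elsewhere. In the miR-181 family, which shares the seed ACAUUCA in its 5p arms, miR-181a-5p had 2531 and 2708 normalised CPM in A-549 and at most 1720 elsewhere, miR-181d-5p had 128 and 115 against at most 42.0, and miR-181a-2-3p had 937 and 985 against at most 674.

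Fewer miRNAs were lower in A-549 than in every other line, and the largest related group among them was the miR-17-92 cluster. This cluster, also called oncomiR-1, lies in MIR17HG on chromosome 13 between 91350605 and 91351391, and MYC is known to activate it. Summed over its 14 names, it gave 22530 ± 46.4 normalised CPM in A-549 (SD, n = 2), 66753 ± 1646 in ES-2, 36822 ± 1240 in MV-3 and 47102 ± 2033 in Huh-7. The A-549 sum was 0.338, 0.612 and 0.478 times the others. Most of each sum was miR-92a-3p, with a mean of 21221 in A-549, 61868 in ES-2, 34498 in MV-3 and 43836 in Huh-7. These ratios therefore mainly follow that miRNA, which also has a copy on chromosome X. Of its 10 miRNAs tested, 6 were lower than in every other line, beside 4.73% of all miRNAs tested, and 9 were lower than the mean of the lines, beside 20.8%. The 6 were miR-17-5p, miR-18a-5p, miR-18a-3p, miR-19a-3p, miR-20a-5p and miR-92a-3p. Their number was 9 with miR-21-5p in the total, 4 without it, and 4 or 5 when a single library was left out.

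miR-17-5p had 283 and 249 normalised CPM in A-549, 1168 and 1079 in ES-2, 612 and 660 in MV-3, and 848 and 832 in Huh-7. Its log2 differences were -2.08, -1.26 and -1.66 (SE 0.09 each; largest limma adjusted p = 7.6e-05). miR-18a-5p had 133 and 113 in A-549 and between 256 and 550 in the other libraries. miR-92a-3p, the most abundant of the cluster, had 21203 and 21240 in A-549, 60629 and 63106 in ES-2, 33575 and 35421 in MV-3, and 45110 and 42562 in Huh-7, though part of its reads may come from a second copy on chromosome X. miR-19b-3p was not lower than in every other line, with at most 205 in A-549 and 333 and 242 in MV-3 (log2 difference -0.48; limma adjusted p = 0.056). The paralogous miR-106b-25 cluster on chromosome 7 summed to 9454 ± 339 normalised CPM in A-549 (SD, n = 2), 9395 ± 351 in ES-2, 8722 ± 266 in MV-3 and 15617 ± 815 in Huh-7, so A-549 was close to ES-2 and MV-3. miR-106b-5p had 566 and 465 normalised CPM in A-549, 531 and 502 in ES-2, 449 and 424 in MV-3, and 795 and 644 in Huh-7. Its log2 difference to the mean was -0.09 ± 0.11, so A-549 was within the range of the other lines. With miR-21-5p in the total, 3 of its 6 miRNAs, miR-93-5p, miR-25-3p and miR-106b-3p, were lower than in every other line, beside 12.3% of all miRNAs tested on that scale, where the median difference over all miRNAs was -0.98.

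Ratios of paralogs within a library do not depend on the scale, and 7 pairs were formed after their levels had been seen. The ratio of miR-17-5p to miR-106b-5p was 0.499 and 0.534 in A-549, 2.20 and 2.15 in ES-2, 1.36 and 1.56 in MV-3, and 1.07 and 1.29 in Huh-7. A-549 was the only line in which miR-17-5p had fewer reads than miR-106b-5p. The ratio of miR-92a-3p to miR-25-3p was 6.32 and 6.52 in A-549 and lay between 7.33 and 20.7 in the others, and that of miR-20a-5p to miR-93-5p was 0.0980 and 0.0942 in A-549 and between 0.114 and 0.365 in the others. All 3 ratios had A-549 lowest. miR-99b-5p had 30.5 and 25.9 times the reads of miR-99a-5p in A-549, 13.1 and 16.1 times in MV-3, and between 2.34 and 2.74 times in ES-2 and Huh-7. For the other pairs Huh-7 was highest, with a ratio of miR-23b-3p to miR-23a-3p of 1.67 and 1.85 in Huh-7 and 0.683 and 0.684 in A-549, and of miR-27b-3p to miR-27a-3p of 18.5 and 17.9 in Huh-7 and 6 and 7.05 in A-549.

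**Figure D5:**
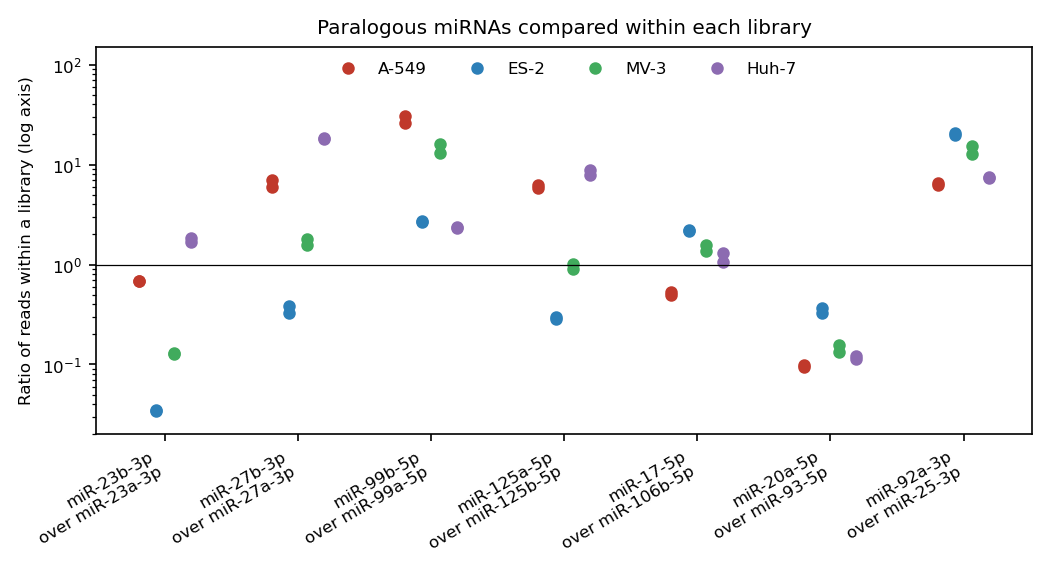
Ratio of reads of 7 pairs of paralogous miRNAs within each library, on a log axis, with 1 point per library and a line at a ratio of 1. A-549 (red) is lowest in the 3 pairs on the right, where it is 0.499 and 0.534 for miR-17-5p over miR-106b-5p, and highest for miR-99b-5p over miR-99a-5p, at 30.5 and 25.9.

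The other miRNAs lower in A-549 came from many loci. miR-26a-5p and miR-26b-5p share the seed UCAAGUA and lie in introns of the CTDSP phosphatase genes. miR-26a-5p had 6892 and 6987 normalised CPM in A-549, 14864 and 15641 in ES-2, 10452 and 10908 in MV-3, and 18079 and 16514 in Huh-7. miR-26b-5p had 1422 and 1808 in A-549 and between 2456 and 5691 elsewhere, but was not called against every line once miR-21-5p was left out of the total. miR-146a-5p, a miRNA induced by NF-kB that restrains innate immune signalling, had 175 and 187 normalised CPM in A-549, 459 and 447 in ES-2, 520.4 and 598 in MV-3, and 4323 and 4007 in Huh-7. Its log2 difference was -1.32 to ES-2 and -4.51 to Huh-7 (SE 0.09 each; limma adjusted p = 4.8e-05 and 1.9e-07). miR-10b-5p, from the HOXD cluster, had 1078 and 1241 in A-549 and between 2404 and 3057 elsewhere, and miR-615-3p, from introns of HOXC4 and HOXC5, had 78.2 and 72.8 in A-549 and between 123 and 464 elsewhere.

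miR-574-3p had 145 and 108 normalised CPM in A-549 and between 330.2 and 453 elsewhere. miR-130b-5p had 310.2 and 317 in A-549 and between 624 and 1091 elsewhere, and miR-186-5p had 508 and 493 against 877 to 2794. miR-197-3p and miR-128-3p were lower by less, with smallest log2 differences of -0.75 and -0.69 to ES-2, and were not lower than in every line once miR-21-5p was left out of the total. miR-296-3p was close to absent, with 1 read in each A-549 library, 78 and 126 reads in ES-2, 167 and 259 in MV-3, and 32 and 50 in Huh-7. Its hairpin lies at chr20:58817615-58817694 in the imprinted GNAS region. The same hairpin's miR-296-5p had 0 reads in both A-549 libraries and 1 and 0 in Huh-7. Both arms of miR-191, with miR-15b-3p, miR-16-2-3p, miR-30e-3p and miR-1226-3p, complete the 25.

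Several families that mark epithelial, liver or stromal cells separated A-549 from some lines and not from others. The miR-200 family, which maintains the epithelial state by repressing ZEB1 and ZEB2, summed to 1720 ± 66.2 normalised CPM in A-549 (SD, n = 2), 2365 ± 54.9 in Huh-7, 58.2 ± 3.12 in ES-2 and 38.1 ± 12 in MV-3. The miR-192/miR-194/miR-215 clusters, abundant in gut and liver epithelium, summed to 7896 ± 171 in A-549, 10393 ± 1022 in Huh-7 and 156 and 154 in ES-2 and MV-3. Huh-7 was above A-549 in both sums. miR-199 and miR-214, typical of mesenchymal cells, summed to 19.1 in A-549 and 16.2 in Huh-7, against 7900 ± 199 in ES-2 and 11940 ± 637 in MV-3. Not all miR-200 miRNAs were present in A-549, where miR-141-3p had 0 and 1 reads and miR-200c-3p had 56.0 and 104 normalised CPM.

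The let-7 family, tumor suppressors that are low in Huh-7, summed to 189906 ± 22055 in A-549, 241477 ± 12854 in ES-2, 150233 ± 5734 in MV-3 and 8744 ± 347 in Huh-7. Of 19 let-7 miRNAs tested, 13 were higher than the mean of the lines, beside 29.4% of all miRNAs tested, but only let-7e-5p was higher than in every line. Several other abundant miRNAs lay below ES-2 and MV-3 and above Huh-7. miR-222-3p, which targets the cell cycle inhibitor p27, had 14138 and 14937 normalised CPM in A-549, 64000 and 67794 in ES-2, 38796 and 38673 in MV-3, and 2527 and 2360 in Huh-7. miR-221-3p, from the same cluster on chromosome X, miR-29a-3p and miR-100-5p took the same place, with log2 differences to ES-2, MV-3 and Huh-7 of -2.06, -1.23 and 2.89 for miR-221-3p, -2.12, -0.94 and 2.62 for miR-29a-3p, and -3.14, -2.02 and 6.05 for miR-100-5p (all called by limma).

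miR-143-3p had 2506 and 2617 normalised CPM in A-549, 9.02 and 25.2 in ES-2, 1057 and 1018 in MV-3, and 244 and 257 in Huh-7. A-549 had the highest libraries, but the difference to MV-3 was not called (log2 difference 1.30 ± 0.40, SE; limma adjusted p = 0.035). miR-34a-5p, a target of p53, had 435 and 452 in A-549 and 174 and 152 in Huh-7, a difference that was not called either (limma adjusted p = 0.067), and at most 4.17 in ES-2 and 0 reads in MV-3. miR-155-5p had 38.2 and 38.4 normalised CPM in A-549, against 9019 and 9480 in ES-2 and 2461 and 3221 in MV-3, and Huh-7 held 0 and 1 reads. The study predicted miRNAs that target the mRNA of the transcription factor SRF and listed the 10 most abundant, which it chose on these libraries. In this list of 10, 6 were higher and 1 was lower than the mean of the lines, beside 29.4% and 20.8% of all miRNAs tested. The median log2 difference was 0.64 against -0.08 over all miRNAs tested. Against every line, 3 were higher and 0 lower in normalised CPM, beside 13.1% and 4.73% of all miRNAs tested. With miR-21-5p in the total, 1 was higher and 2 were lower, beside 8.52% and 12.3%. As the list was chosen on these libraries, these counts are not independent evidence of a direction.

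Marker lists of other cell types differed in how many reads they had in A-549. The hepatocyte list of 4 names summed to 12 and 4 reads, the melanocyte list of 4 names to 4 and 6, the muscle list of 6 names to 14 and 11, and the haematopoietic list of 6 names to 0 and 2. The keratinocyte and neuroendocrine list of 5 names gave 100 and 106 reads, and the erythroid list of 5 names gave 648 and 418, of which miR-486-5p made up 581 and 383. In normalised CPM the erythroid list summed to 370.4 ± 40.3 in A-549 (SD, n = 2), 11.4 ± 6.3 in ES-2, 135 ± 8.1 in MV-3 and 842 ± 4.1 in Huh-7, and its 2 miRNAs tested were higher in A-549 than the mean of the lines. Huh-7 held 301872 and 263208 reads of the hepatocyte list.

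The balance between the arms of a hairpin was compared in 95 hairpins with at least 50 reads over both arms in every library. As reads were summed over both arms, some of these hairpins had an arm with 0 reads in all 8 libraries. Examples are the 3p arms of miR-186, miR-15a and miR-196a. For such hairpins the ratio follows the level of the other arm and is no measure of arm balance. By limma, 0 of 95 ratios (0%) were higher or lower in A-549 than in every other line at an adjusted p below 0.01. At an unadjusted p below 0.05 in all 3 pairs 4 of the 95 hairpins differed, and in 12 of the 95 the A-549 libraries did not overlap the others. The 12 include miR-186 and miR-19a, each with an arm of 0 reads in all 8 libraries. The log2 ratio of miR-21-5p to miR-21-3p was 8.85 and 9.05 in A-549 and between 8.63 and 9.25 in the other libraries, so A-549 lay within their range. The only ratio called against every line at an adjusted p below 0.05 was that of miR-19a. The 5p arm of this hairpin had 0 reads in all 8 libraries, so the ratio is set by the 0.5 reads added to each arm and by the level of miR-19a-3p.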

How the data were processed

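Per the labels and the study's methods, the authors clipped reads with cutadapt 1.14, aligned them to GRCh38 with Bowtie2 2.3.2, counted reads on miRBase mature miRNAs with featureCounts 1.5.3 and scaled libraries by TMM in edgeR 3.18.1. The treatment of reads with several alignments and of strand is not given in the sources used here, so paralogs that differ by few bases may share reads. The deposited table holds this normalised signal. Within a tolerance of 0.001, 100% of its values were whole reads times a constant of the library, from which reads were recovered (1173902 to 2670030 per library, and 3 reads were the floor, at 0.845 to 2.45 normalised CPM, for counting error only). Of 2813 entries, those sharing 1 of 2588 names were summed.

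limma 3.58.1 (R 4.3.3) was fitted to log2(normalised CPM + 1) with 1 term per line over all 8 libraries and 4 residual degrees of freedom, after filterByExpr of edgeR 4.0.16 had kept 528 miRNAs. Fold changes of miRNAs with few reads are understated on this scale. The Benjamini-Hochberg adjustment of p-values ran over all 528. The step was tested on simulated data. edgeR and DESeq2 1.42.0 on recovered reads were alternatives. Arm ratios used a pseudocount of 0.5 reads.

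The members, lists and comparisons were chosen with earlier results of these data known. Named miRNAs are the 4 markers, the 5 most abundant in A-549, and per direction the 12 with the largest smallest-of-3 log2 difference at a mean of 100 or more library CPM in A-549 (higher) or in each other line (lower), with list members as examples. Arm ratios are reported by count, and the hairpins miR-21 and miR-19a were picked after their values were seen, as were miRNAs outside this rule. Sequences and hairpin positions are from RefSeq (90 of the 94 called miRNAs matched) and host genes from GENCODE on GRCh38.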

Additional observations from a re-analysis of the deposited data

How the results depend on the processing

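With A-549 represented by 2 libraries, single calls near the threshold moved with the settings, while no call turned into one of the opposite direction under another scaling. The balance of higher to lower miRNAs did turn with the scale, as did the order of A-549 and ES-2 for miR-30a-5p and for the let-7 sum. Against the mean of the lines, the count of lower miRNAs was 220 with miR-21-5p in the library total, 61 with edgeR's quasi-likelihood test, 57 with DESeq2 and 73 without replicate 2 of both ES-2 and Huh-7, an alternative chosen after seeing the data, against 110. The count higher than in every other line was 45 with miR-21-5p in the total, 40 with a pseudocount of 0.1, 117 by non-overlap of libraries with no test, and 44 to 64 when single libraries were left out, against 69. The count lower than in every other line was 65 and 13 with and without miR-21-5p in the total, 16 with RLE size factors, 15 with no filter, 12 with a minimum log2 difference of 1, 12 with each pair fitted on its own libraries, 58 by non-overlap, 9 without both second libraries and 13 to 19 with 1 library left out, against 25. DLK1-DIO3 miRNAs called higher than in every other line numbered 20 with a pseudocount of 0.1, and 28 to 45 with 1 library left out: 31 without A-549 replicate 1, 28 without A-549 replicate 2 and 31 without MV-3 replicate 1. For miR-493-5p the log2 difference to the mean was 8.49 to 9.58 with 1 library left out and was not called without A-549 replicate 1 (9.13) or replicate 2 (8.95). At an adjusted p below 0.05, 1 hairpin had a higher 5p to 3p ratio, namely miR-19a, which has no 5p reads. With the replicate block, 71 miRNAs were higher and 21 lower than in every other line, and 151 and 103 against the mean. Deviations of same-numbered libraries correlated by -0.05 to 0.23, so the numbers were not taken as pairs. The lead in the share of miR-21-5p was 33.1 to 33.9 points with 1 library left out. A library left out leaves its line with 1, assumed to vary like the others. The floor of 3 reads, 1.85 and 2.45 normalised CPM in the A-549 libraries, limits what can be measured as lower there.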
